A study of Mus musculus with 16 samples.

Results

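The lungs of 8 bleomycin-treated mice, out of 16 mice in the series, were compared by the Cre line that marked the sorted cells. They were the 4 *Acta2-tdT* mice (strain Acta2-CreERT2; tdTomatoflox, numbered 5 to 8) and the 4 *Pdgfra-tdT* mice (strain Pdgfra-CreERT2; tdTomatoflox, numbered 5 to 8) labelled as 14 days after bleomycin. All 8 were male, on a C57BL6 background, 11 weeks of age, and carried tdTomato, a red fluorescent protein that stays on once tamoxifen-activated Cre has recombined its locus. In *Acta2-tdT* mice Cre was driven by the *Acta2* promoter, and tamoxifen was given in food at 400 mg/kg, starting 5 days after bleomycin. In *Pdgfra-tdT* mice Cre was driven by the *Pdgfra* promoter, and tamoxifen was given as 5 injections of 3 mg at 6 weeks of age, before the injury. The line and the tamoxifen regime therefore cannot be told apart. tdTomato-positive cells of the left lobe were sorted directly into lysis buffer, and SmartSeq2 libraries, which amplify full-length cDNA from little RNA, were sequenced from each mouse. The 8 saline mice (4 per line, numbered 1 to 4, with the same tamoxifen regimes) were used only to ask whether a line difference was also there without bleomycin.

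*Acta2* encodes α-smooth muscle actin, the actin of contractile stress fibers in smooth muscle and in myofibroblasts, the matrix-depositing cells of injured tissue. *Pdgfra* encodes the receptor of platelet-derived growth factor A, which marks matrix fibroblasts along alveoli and around vessels and airways. Bleomycin injures the alveolar epithelium, and lung cells then deposit fibrillar collagen. The comparison addressed which genes set the *Acta2* lineage apart from the *Pdgfra* lineage in the injured lung.

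The deposited value was the FPKM, mapped fragments divided by transcript length and by the mapped total of the library, computed for each mouse separately. FPKM differences were tested with limma on log2(FPKM + 1), and a gene was called at a Benjamini-Hochberg adjusted p under 0.05. Such log2 differences understate the change of low genes. Each comparison was made on the deposited values and again after each mouse was scaled so that its FPKM over nuclear protein-coding genes had the same sum (the scaled values below). A log2 difference above 0 means higher in *Acta2-tdT* mice. Genes were tested if they reached an FPKM of 1 in 4 or more of the 8 mice, so that a gene could pass through the line in which it was high. Counts over a gene list are out of all its members, and an untested member counts as not called, whereas the percentages over all genes are of tested genes.

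The libraries of the lines differed before any single gene was considered. The FPKM of nuclear protein-coding genes summed to 241920 to 466180 in the *Acta2-tdT* mice and to 29727 to 147470 in the *Pdgfra-tdT* mice (exact two-sided permutation p = 0.0286, the smallest that 70 labellings allow). Protein-coding genes with FPKM of at least 1 numbered 10420 ± 317.8 (SD, n = 4) and 4721 ± 2373 (SD, n = 4; exact p = 0.0286). *Pdgfra-tdT* mouse 5 had 7910 such genes, mice 6 and 7 had 4719 and 4034, and mouse 8 had 2221. No sum or gene number of the lines overlapped. The 1445 olfactory and vomeronasal receptor genes, which sensory neurons of the nose use, served as a gauge of low signal: their median FPKM was 0.0134 to 0.122 in *Acta2-tdT* mice and 0.0920 to 0.317 in *Pdgfra-tdT* mice (exact p = 0.0571). Mitochondrially encoded genes took 6.76 ± 3.07% and 5.67 ± 2.71% of protein-coding FPKM (SD, n = 4; exact p = 0.571). Nuclear protein-coding genes held 30.8 to 43.2% of the FPKM of all genes in *Acta2-tdT* mice and 13.9 to 24.9% in *Pdgfra-tdT* mice (exact p = 0.0286). FPKM carry no counts, so the depth is unknown. In such bulk samples fewer cells of a type and less RNA per cell cannot be told apart.

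**Figure D1:**
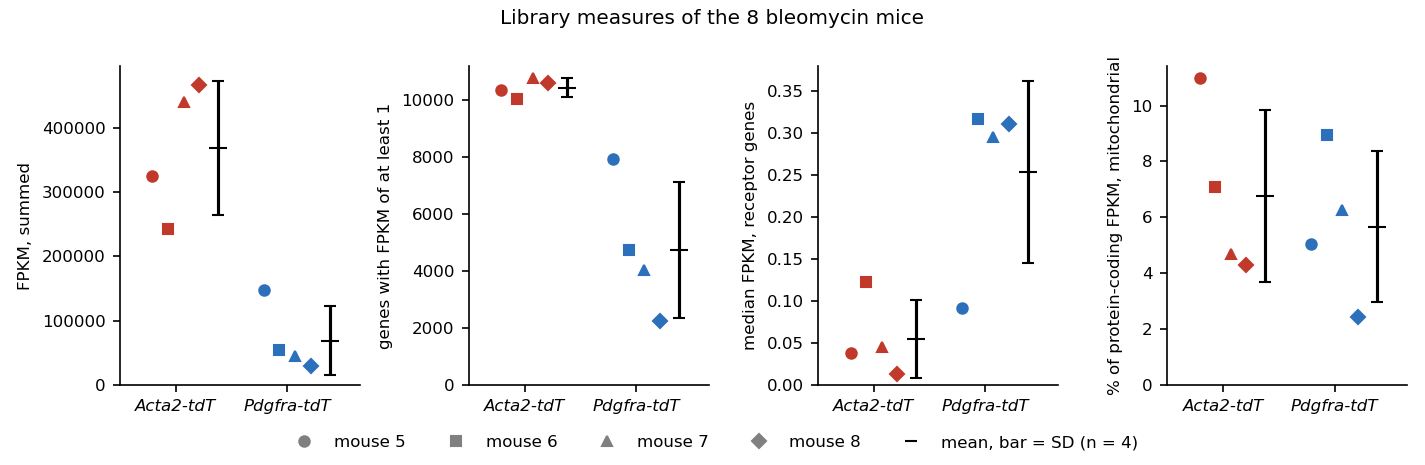
Each panel gives a library measure for the 8 bleomycin mice, with a symbol per mouse and the mean and SD (n = 4) beside each line. The vertical axes are, from left, the summed FPKM of nuclear protein-coding genes, the number of protein-coding genes with FPKM of at least 1, the median FPKM of 1445 receptor genes, and the percent of protein-coding FPKM on mitochondrially encoded genes. *Pdgfra-tdT* mouse 5 sits nearest to the *Acta2-tdT* mice in the first 3 panels, and mouse 8 has the fewest genes.

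Without scaling, 8034 of 9457 tested protein-coding genes (85.0%) were called higher in *Acta2-tdT* mice and 236 (2.50%) higher in *Pdgfra-tdT* mice, and the median log2 difference over all of them was 2.11. With scaling, 1814 of 8722 (20.8%) were higher in *Acta2-tdT* mice and 844 (9.68%) in *Pdgfra-tdT* mice, and the median was 0.566. Every mouse of *Acta2-tdT* was above every mouse of *Pdgfra-tdT* for 68.2% of tested genes without scaling and 24.5% with it, and the reverse held for 1.76% and 9.13%. Scaling thus moved the whole distribution by more than 1 log2 unit, and the scaled differences are given first below. All 1814 genes were also called higher in *Acta2-tdT* mice without scaling, whereas 219 of the 844 were called higher in *Pdgfra-tdT* mice without it and 5 were called the other way. Without the low-gene *Pdgfra-tdT* mice 7 and 8, 1429 and 345 genes were called with scaling. Without mouse 5, 3011 and 666 were called. Scaling to a sum of 1000000 lifts low genes above the pseudocount and past the filter, so that 15388 genes were tested in place of 8722. It gave 1710 and 2665, and the share of calls higher in *Acta2-tdT* mice was 39.1% in place of 68.2%. Scaling by the median ratio gave 57.5%.

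The gene that drives Cre in the *Acta2* line was among the largest differences. *Acta2* (ENSMUSG00000035783, mm10 chr19:34241090-34255336) was at 1541, 1229, 1975 and 3211 FPKM in *Acta2-tdT* mice 5 to 8, and at 19.4, 0.831, 0.836 and 0.834 FPKM in *Pdgfra-tdT* mice 5 to 8. Every *Acta2-tdT* mouse was thus far above every *Pdgfra-tdT* mouse, and *Pdgfra-tdT* mouse 5 was apart from the others of its line. The scaled log2 difference was 7.0 ± 0.68 (SE; limma adjusted p = 0.000229), and the unscaled difference was 9.12 (adjusted p = 6.02e-05).

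The gene that drives Cre in the *Pdgfra* line did not follow its line. *Pdgfra* (ENSMUSG00000029231, mm10 chr5:75152292-75198215) was at 8.01, 2.49, 9.09 and 11.9 FPKM in *Acta2-tdT* mice 5 to 8, and at 2.45, 1.36, 2.02 and 0.977 FPKM in *Pdgfra-tdT* mice 5 to 8. On this deposited scale all *Acta2-tdT* mice were above all *Pdgfra-tdT* mice, the reverse of the labelled lineage. The same order held for 68.2% of all tested genes on that scale, where the median log2 difference of all tested genes was 2.11. The unscaled log2 difference was 1.6 ± 0.47 (SE; limma adjusted p = 0.00895), and the scaled difference was -0.42 ± 0.39 (SE; adjusted p = 0.400). In the saline mice *Pdgfra* was at 0.273 to 0.562 FPKM in *Acta2-tdT* and at 2.14 to 3.82 FPKM in *Pdgfra-tdT* mice, without overlap, with a scaled log2 difference of -1.54 (adjusted p = 0.00690). The change of the line difference between saline and bleomycin was 1.56 (limma interaction, adjusted p = 0.0630), which missed the threshold.

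Other markers of lung fibroblasts were uneven among the *Pdgfra-tdT* bleomycin libraries. Of 15 adventitial fibroblast genes, 11, 5, 3 and 2 had an FPKM of 1 or more in *Pdgfra-tdT* mice 5 to 8, against 10 or 11 in each *Acta2-tdT* mouse, and the list took 0.748, 0.375, 0.118 and 0.0363% of nuclear protein-coding FPKM against 0.0890 to 0.162%. *Ly6a*, which endothelial and stem cells also express, carried most of that share in mice 5 and 6, and without it the list took 0.10, 0.0328, 0.0179 and 0.0125% against 0.0718 to 0.141%, so that mice 6 to 8 were below every *Acta2-tdT* mouse. In mouse 5 *Mfap5*, *Pi16*, *Serpinf1*, *Fbln1* and *Dpt* were at 30.8, 16.6, 10.9, 8.26 and 7.81 FPKM, and *Cd34*, which endothelial cells also express, was at 58.2 FPKM. In mice 6 to 8 *Pi16* and *Dpt* reached no more than 0.664 and 0.811 FPKM. Of 15 alveolar fibroblast genes, 5, 3, 4 and 1 had an FPKM of 1 or more in *Pdgfra-tdT* mice 5 to 8, against 10 or 11 in each *Acta2-tdT* mouse. The highest was *Plin2*, the lipid droplet perilipin of many cell types, at 16.9, 12.4, 22.5 and 1.63 FPKM, whereas *Npnt*, which encodes the matrix protein nephronectin, reached 0.740 FPKM. *Tcf21*, a transcription factor of alveolar fibroblasts, was listed at 0 in all 4 *Pdgfra-tdT* mice and in 3 of 4 *Acta2-tdT* mice, and a listed 0 can be a failed estimate. Fibroblast markers were thus present in *Pdgfra-tdT* mouse 5 and mostly below 1 FPKM in mice 6 to 8, and both groups are called by their line. The files do not settle which cells these libraries held, so that a line difference below is one between libraries labelled by line. With predicted genes and RIKEN clones set aside, *Lyz2*, *Ftl1*, *Fth1*, *Spp1* and *Apoe* had the largest mean shares in *Pdgfra-tdT* mice. *Lyz2*, the lysozyme of macrophages, took a mean of 2.06% of nuclear protein-coding FPKM. The predicted gene *Gm11032* was above it in every *Pdgfra-tdT* mouse, at 4091, 6093, 8036 and 10900 FPKM in mice 5 to 8. In mouse 8 all nuclear protein-coding genes summed to 29727 FPKM. With the same genes set aside, *Acta2-tdT* libraries were led by *Mgp* at 2.27%, *Spp1* at 1.90%, *Apoe* at 1.71% and *Sparc* at 1.44%. *Acta2* came 13th at 0.531%. The predicted gene *Gm10800* was at 5632, 10850, 4023 and 2573 FPKM in *Acta2-tdT* mice 5 to 8.

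The contractile apparatus was higher in *Acta2-tdT* mice. Of 24 genes of smooth muscle contraction, 16 were called higher in *Acta2-tdT* mice with scaling, against 20.8% of all tested genes, and 0 were called higher in *Pdgfra-tdT* mice, against 9.68%. Their median scaled log2 difference, over all 24 tested or not, was 2.63. Without scaling 22 were called higher in *Acta2-tdT* mice, where 85.0% of all genes were. The 24 genes took 1.81, 1.87, 1.77 and 2.41% of nuclear protein-coding FPKM in *Acta2-tdT* mice 5 to 8. Scaling divides by that same FPKM sum, so the share restates the scaled values and is no separate check of them. In *Pdgfra-tdT* mice 5 to 8 the share was 0.392, 0.211, 0.117 and 0.0649%, below every *Acta2-tdT* mouse.

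*Tpm2*, the β-tropomyosin that lies along the actin filament, was at 804, 587, 1014 and 1447 FPKM in *Acta2-tdT* mice 5 to 8, and at 7.33, 0.0720, 0.288 and 0.160 FPKM in *Pdgfra-tdT* mice 5 to 8. It had the largest scaled difference by the naming rule, 7.26 ± 0.64 (SE; limma adjusted p = 0.000146). The groups were widely separated, and again mouse 5 alone of the *Pdgfra-tdT* mice passed 1 FPKM. *Myl9*, the regulatory myosin light chain of smooth muscle, was at 490, 440.3, 754 and 1226 FPKM against 11.4, 1.41, 0 and 0.549 FPKM (scaled log2 difference 6.15 ± 0.73 SE, adjusted p = 0.000497). *Des*, the intermediate filament desmin, was at 231, 199, 391 and 583 FPKM against 2.32, 0.0926, 0.244 and 0.210 FPKM (6.05 ± 0.48 SE, adjusted p = 0.000102). *Actg2*, the enteric smooth muscle actin whose sequence is close to that of *Acta2* and whose reads could be divided with it, and *Cnn1*, the actin-binding calponin, differed by 5.78 ± 0.63 (SE; adjusted p = 0.000362) and 4.82 ± 0.48 (SE; adjusted p = 0.000250).

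The differences within the list were not equal. *Tagln* (transgelin) and *Myh11* (the smooth muscle myosin heavy chain) were called at 3.81 and 1.85, at 31.1 to 62.8 and 14.4 to 20.8 FPKM in *Acta2-tdT* mice, well below *Acta2* and *Tpm2* on the same per-length scale. *Myocd*, the coactivator of smooth muscle genes, was at 6.07 to 27.0 FPKM in *Acta2-tdT* mice and at 0.126 to 0.719 FPKM in *Pdgfra-tdT* mice (1.63 ± 0.46 SE, adjusted p = 0.0181). *Myl6*, a light chain that non-muscle cells use as well, was at 765 to 1502 FPKM and 10.5 to 424 FPKM, and its scaled difference of 1.38 ± 0.73 (SE) was not called (adjusted p = 0.153). *Pln* and *Casq2*, genes of calcium storage in muscle, stayed under 1.3 FPKM in every mouse.

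Serum response factor binds a short motif, the CArG box, in the promoters of many contractile genes. The 250 bases before the transcription start that RefSeq gives on GRCm38.p6 are printed for *Acta2* and *Myl9*, the contractile genes of the naming rule whose promoters held such matches, with CArG box matches in capitals. *Acta2* lies at chr19:34255374-34255623 on the minus strand, and *Myl9* lies at chr2:156775214-156775463 on the plus strand.
Acta2: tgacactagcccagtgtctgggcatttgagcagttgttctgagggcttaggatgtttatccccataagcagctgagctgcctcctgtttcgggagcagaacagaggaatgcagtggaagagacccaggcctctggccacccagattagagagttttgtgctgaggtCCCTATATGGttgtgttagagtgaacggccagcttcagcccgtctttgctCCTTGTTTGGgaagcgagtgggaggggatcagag
Myl9: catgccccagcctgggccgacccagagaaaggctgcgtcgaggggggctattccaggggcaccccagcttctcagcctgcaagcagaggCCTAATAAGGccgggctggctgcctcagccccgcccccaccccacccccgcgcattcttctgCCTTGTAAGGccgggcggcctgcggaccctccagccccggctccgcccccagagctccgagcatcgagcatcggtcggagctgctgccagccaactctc
The *Acta2* window held matches whose first bases lay 84 and 34 bases before the start, each with 1 departure from the motif. The *Myl9* window held an exact match at 161 bases and a match with 1 departure at 99 bases before the start. Both strands were searched. An exact match stood in 2 of the 19 contractile genes with a RefSeq promoter (10.53%), *Myl9* and *Myl6*, and in 1.62% of 27025 genes. With up to 1 departure allowed, matches stood in 8 of 19 (42.11%), in 6 of 18 genes of fibrillar matrix (33.33%) and in 21.07% of all genes. *Myl6* was not called with scaling although its match was exact. The promoter fragment of the transgene itself was not analysed here.

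Fibrillar matrix genes were higher in *Acta2-tdT* mice as well. Of 28 genes, 27 were called higher in *Acta2-tdT* mice with scaling, against 20.8% of all tested genes, and 0 higher in *Pdgfra-tdT* mice, and the median scaled log2 difference over all 28 was 3.95, beside 0.566 for all tested genes. The member not called, *Col14a1*, was not tested with scaling and was at 1.64 to 4.88 against 0.119 to 2.60 FPKM. The 28 genes took 4.86, 3.85, 4.64 and 6.32% of nuclear protein-coding FPKM in *Acta2-tdT* mice 5 to 8 and 0.950, 0.330, 0.0909 and 0.0626% in *Pdgfra-tdT* mice 5 to 8. No mouse of either line overlapped the other line. Without the *Pdgfra-tdT* mice 7 and 8, 25 genes were called.

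*Col1a1*, the α1 chain of type I collagen, was at 499, 275, 906 and 1002 FPKM in *Acta2-tdT* mice 5 to 8, and at 13.3, 0.875, 0.503 and 0.296 FPKM in *Pdgfra-tdT* mice 5 to 8 (scaled log2 difference 5.85 ± 0.66 SE, limma adjusted p = 0.000385). *Col1a2*, the partner chain, was at 563, 305, 642 and 834 FPKM against 19.2, 0.318, 0.305 and 0.239 FPKM (5.98 ± 0.77 SE, adjusted p = 0.000696). Both chains were below 1 FPKM in 3 of 4 *Pdgfra-tdT* mice, and mouse 5 was the exception. *Mgp*, the matrix Gla protein that restrains calcification of vessel walls and cartilage, was at 8061, 3908, 8880 and 13700 FPKM, against 205, 28.3, 3.39 and 4.43 FPKM (6.14 ± 0.88 SE, adjusted p = 0.00112). With predicted genes and RIKEN clones set aside, it had the highest mean share of nuclear protein-coding FPKM in *Acta2-tdT* mice. *Apoe* was above it in *Acta2-tdT* mice 6 and 7, at 3973 and 12330 FPKM. *Postn*, which encodes the matricellular protein periostin, was at 253 to 633 FPKM against 0.0669 to 8.11 FPKM (5.99 ± 0.66 SE, adjusted p = 0.000378). The beaded-filament collagen gene *Col6a2*, the secreted *Cthrc1*, the elastin gene *Eln* and *Col3a1* were called at 5.31, 5.26, 4.54 and 4.89.

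Some matrix genes were lower or closer between the lines. *Sparc* and *Dcn*, which encode a collagen-binding glycoprotein and the proteoglycan decorin, were at 970 and 96.2 FPKM in *Pdgfra-tdT* mouse 5 and at 7.39 to 121 and 0.622 to 14.6 FPKM in mice 6 to 8. Their scaled differences were 3.5 ± 0.95 (SE; adjusted p = 0.0149) and 3.17 ± 1.02 (SE; adjusted p = 0.0326). *Col15a1* and *Col8a1* were called at 1.33 and 1.42, the lowest among called members.

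Genes that process matrix followed the same direction. Of 21 genes for collagen hydroxylation, crosslinking and turnover, 19 were called higher in *Acta2-tdT* mice with scaling, against 20.8% of all tested genes, and 0 higher in *Pdgfra-tdT* mice, with a median of 2.42 over all 21. *Timp1*, an inhibitor of matrix metalloproteinases, was at 1608, 812, 1203 and 2060 FPKM in *Acta2-tdT* mice 5 to 8 and at 21.8, 6.17, 1.99 and 0.582 FPKM in *Pdgfra-tdT* mice 5 to 8 (5.73 ± 0.68 SE, limma adjusted p = 0.000497). *Lox* and *Loxl1*, which crosslink collagen and elastin, were called at 3.39 and 3.44. *Pcolce*, an enhancer of procollagen cleavage, *Mmp2* and *Mmp14* were called at 4.89, 3.5 and 3.42. *P4ha1* and *Fap* were the members without a call, and *Fap*, a protease of activated fibroblasts, stayed under 1.5 FPKM in every mouse. *Serpine2*, an inhibitor of thrombin and other serine proteases that stood in no list, was at 460, 347, 673 and 903 FPKM against 4.69, 0.0786, 0.469 and 0.281 FPKM (6.49 ± 0.56 SE, adjusted p = 0.000127).

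Growth factor signalling genes were for the most part higher in *Acta2-tdT* mice. Of 25 genes, 15 were called higher in *Acta2-tdT* mice and 2 higher in *Pdgfra-tdT* mice with scaling, against 20.8% and 9.68% of all tested genes, with a median of 2.16 over all 25. Without any 1 of the *Acta2-tdT* mice 7 or 8 were called higher in *Acta2-tdT* mice, from fewer genes tested. *Thbs1*, the thrombospondin that can activate latent TGF-β, was at 262, 110, 323 and 433 FPKM in *Acta2-tdT* mice 5 to 8 and at 4.07, 0.331, 0.151 and 0.122 FPKM in *Pdgfra-tdT* mice 5 to 8 (5.56 ± 0.53 SE, limma adjusted p = 0.000207). *Ctgf* (connective tissue growth factor) and *Ltbp2*, a protein of the microfibril, were called at 4.31 and 4.17. Ligand *Tgfb2* was called at 2.89 and was at 19.8 to 44.6 FPKM in *Acta2-tdT* mice. *Tgfb1* was not tested and stayed under 1.8 FPKM in every mouse. Among receptors *Pdgfrb* was called at 3.12. *Tgfbr1* was called in the other direction at -2.43 ± 0.62 (SE; adjusted p = 0.0108), at 4.97 to 9.05 FPKM in *Acta2-tdT* mice and at 5.52 to 9.27 FPKM in *Pdgfra-tdT* mice. On the deposited scale *Tgfbr1* overlapped between the lines and differed by -0.16 (adjusted p = 0.759). *Pdgfd*, chosen after its values were seen as the remaining member of that direction, was called at -1.35 and stayed under 1.8 FPKM in every mouse.

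**Figure D2:**
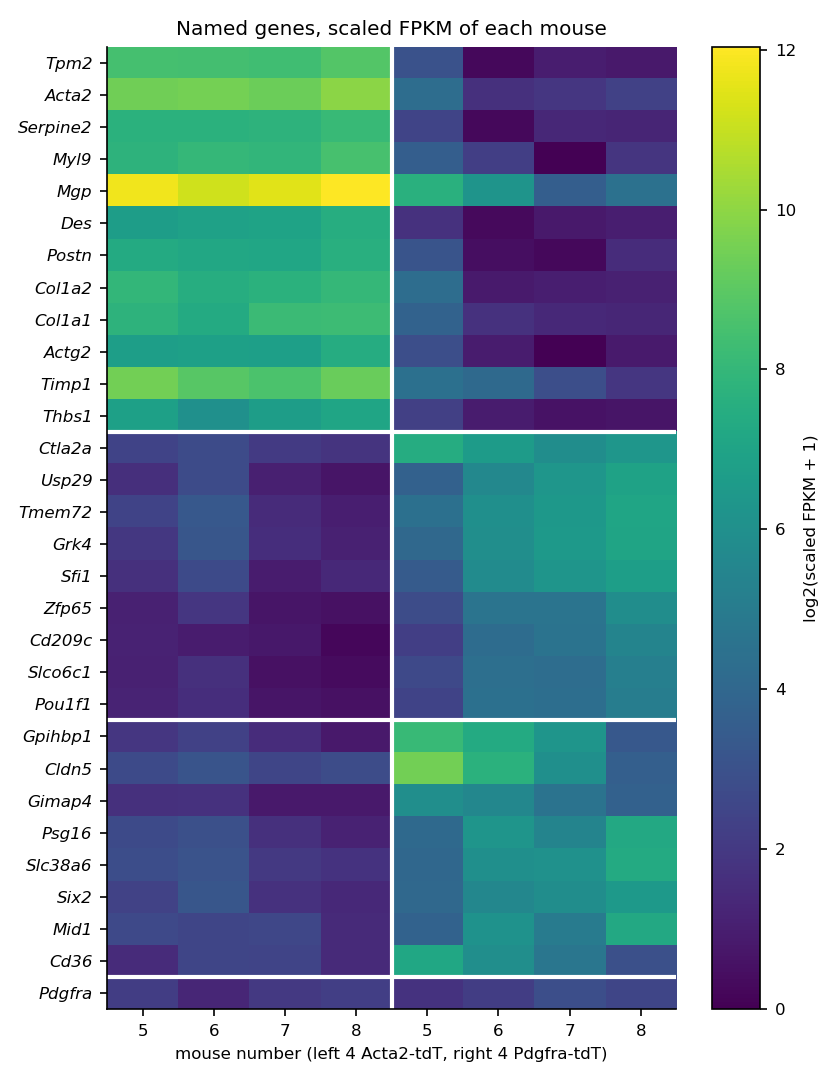
Each row is a named gene and each column a mouse, numbered along the bottom with the *Acta2-tdT* mice on the left, and color gives log2(scaled FPKM + 1). White lines part, from top, genes higher in *Acta2-tdT* mice in both fits, genes higher in *Pdgfra-tdT* mice in both fits, genes higher in *Pdgfra-tdT* mice with scaling only, and *Pdgfra*. *Gpihbp1*, *Cldn5* and *Cd36* are highest in *Pdgfra-tdT* mouse 5, whereas *Usp29*, *Tmem72* and *Grk4* are lowest in mouse 5 among the *Pdgfra-tdT* mice.

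Markers of other mesenchymal cells were called in part, and many were not tested. Of 15 alveolar fibroblast genes, 4 were called higher in *Acta2-tdT* mice with scaling and 0 higher in *Pdgfra-tdT* mice, with a median of 0.38 over all 15. Of the 15, 9 were tested, and of all tested genes 20.8% were called higher in *Acta2-tdT* mice. Without any 1 of the *Acta2-tdT* mice 1 was called, from 6 tested. These were the chemokine gene *Cxcl14* at 3.01, *Npnt* at 2.23, the glypican gene *Gpc3* at 1.81 and *Limch1* at 1.41. *Cxcl14* was at 9.42 to 33.0 FPKM in *Acta2-tdT* mice and under 0.14 FPKM in every *Pdgfra-tdT* mouse. Of 15 adventitial fibroblast genes, 4 were called higher in *Acta2-tdT* mice (*Mfap5* 3.94, *Dpt* 2.49, *Serpinf1* 2.34, *Fbln1* 1.62) and 2 higher in *Pdgfra-tdT* mice (*Dpp4* -1.56, *Ly6a* -2.78), with 10 tested, against 20.8% and 9.68% of all tested genes. Without single mice the first count ran from 3 to 7, the highest without *Pdgfra-tdT* mouse 5, and the second was 1 or 0. Without *Pdgfra-tdT* mice 7 and 8 they were 1 and 2. *Ly6a* was at 956, 186, 44.2 and 7.08 FPKM in *Pdgfra-tdT* mice 5 to 8 and at 55.7 to 106 FPKM in *Acta2-tdT* mice. Of 14 pericyte genes, *Pdgfrb* at 3.12 and the proteoglycan gene *Cspg4* at 1.72 were called, both higher in *Acta2-tdT* mice, with 9 tested, against 20.8% of all tested genes. The count ran from 1 to 4 without single mice and was 4 after receptor background subtraction, where 30.9% of all genes were called.

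Markers of blood and epithelial cells were present in both lines. Of 22 macrophage genes, 3 were called higher in *Acta2-tdT* mice, among them *C1qc* (2.65) and *Csf1r* (2.12), and 2 were called higher in *Pdgfra-tdT* mice, *Lyz2* (-1.80) and *Marco* (-2.58), with a median of 0.18. Of all tested genes 20.8% and 9.68% were called, and with scaling by the median ratio 2 and 5 macrophage genes were called, against 13.2% and 9.75%. The 22 genes took 4.25 to 8.06% of nuclear protein-coding FPKM in *Acta2-tdT* mice and 2.04 to 9.21% in *Pdgfra-tdT* mice, so that the ranges overlapped. Neither *Lyz2* nor *Marco* was called without *Acta2-tdT* mouse 5, 7 or 8 or without *Pdgfra-tdT* mouse 5 or 7. Of 11 neutrophil genes, 5 were called higher in *Acta2-tdT* mice and 0 higher in *Pdgfra-tdT* mice, with a median of 1.59, against 20.8% and 9.68% of all tested genes, and the count was 3 without *Acta2-tdT* mouse 5, 6 or 8. *S100a8*, a calcium-binding protein of neutrophils, was at 3571, 1418, 700 and 1435 FPKM in *Acta2-tdT* mice 5 to 8 and at 77.1, 15.6, 24.2 and 2.23 FPKM in *Pdgfra-tdT* mice 5 to 8 (3.87 ± 0.85 SE, limma adjusted p = 0.00541). *Retnlg*, which is also used by neutrophils, differed by 5.54 ± 0.60 (SE; adjusted p = 0.000347). The neutrophil share was 0.269 to 1.78% in *Acta2-tdT* mice and 0.0358 to 0.10% in *Pdgfra-tdT* mice, and its part in the other line differences was not tested. Of 17 epithelial genes, 9 of them tested, *Krt18* (2.57) and *Krt8* (1.47) were called higher in *Acta2-tdT* mice, against 20.8% of all tested genes, and the count was 1 or 2 without single mice. Of 15 lymphocyte genes, 5 of them tested, *Cd2* (-3.20) and *Cd3d* (-1.32) were called higher in *Pdgfra-tdT* mice, against 9.68%, and the count ran from 1 to 3. Of 10 genes of MHC class II, 16 of interferon response, 13 mitochondrially encoded genes and 81 ribosomal protein genes, 0 were called with scaling by limma. The median of the ribosomal protein genes was 1.12, and the lines did not overlap for 14 of them. Without *Pdgfra-tdT* mouse 5, 22 ribosomal protein genes were called higher in *Acta2-tdT* mice and 2 MHC class II genes higher in *Pdgfra-tdT* mice, in a fit where 37.7% and 8.34% of all tested genes were called in these directions. Without *Pdgfra-tdT* mouse 8, 3 ribosomal protein genes were called higher in *Acta2-tdT* mice.

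Cell state lists held calls in 1 direction. With scaling, 11 of 20 genes of the endoplasmic reticulum stress response, 11 of 24 of the cell cycle, 6 of 20 immediate-early genes and 4 of 15 of glycolysis were called higher in *Acta2-tdT* mice, and 0 of any of these lists were called higher in *Pdgfra-tdT* mice. Of all tested genes 20.8% were called in that direction, and 19, 23, 16 and 12 members of these lists were tested. Their medians were 1.71, 1.10, 1.06 and 0.81, beside 0.566 for all tested genes. Leaving out 1 mouse at a time gave 4 to 15 calls for the stress response, 6 to 14 for the cell cycle, 3 to 9 for the immediate-early genes and 1 to 5 for glycolysis. Glycolysis had 1 call without any 1 of the *Acta2-tdT* mice and without *Pdgfra-tdT* mouse 6.

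**Figure D3:**
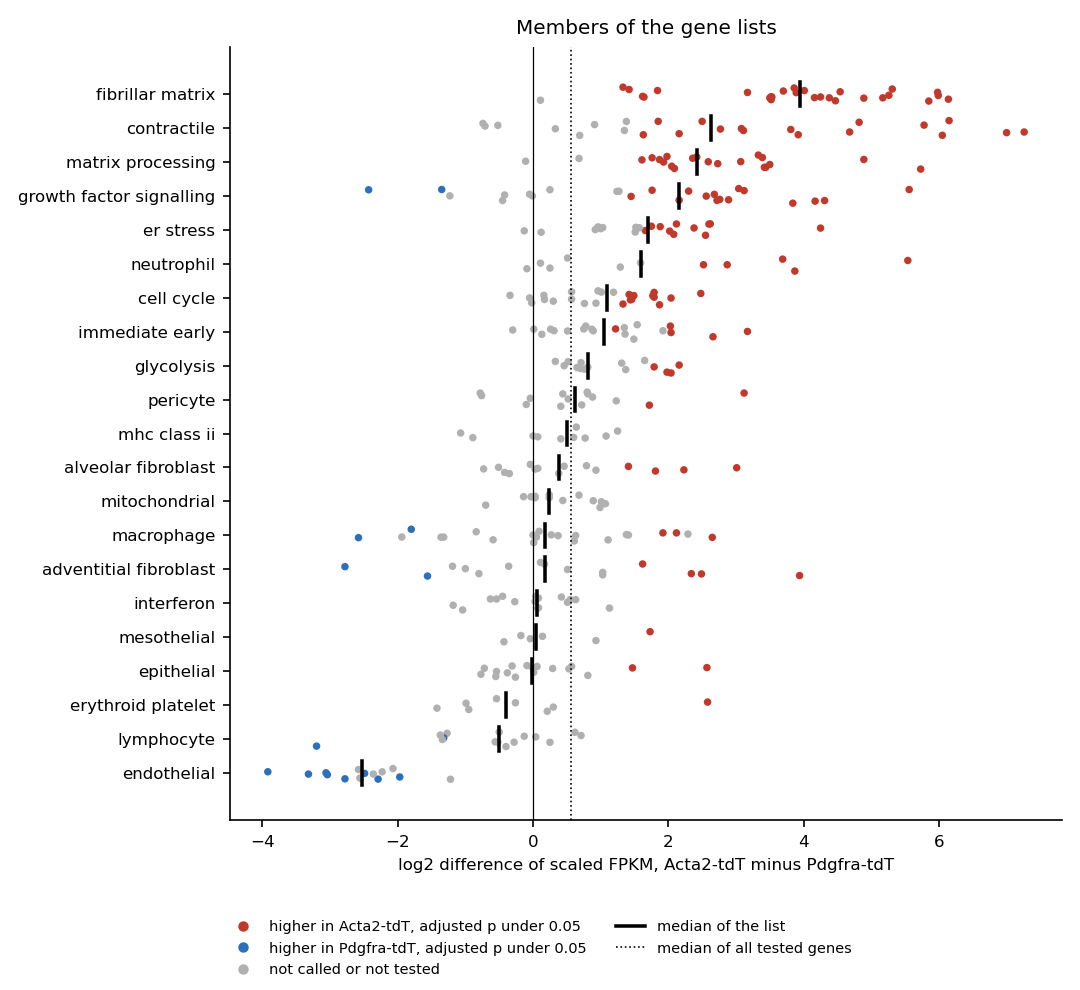
Points are members of 21 gene lists, placed by their log2 difference of scaled FPKM, *Acta2-tdT* minus *Pdgfra-tdT*, and colored by whether limma called them. Black bars mark list medians and the dotted line marks the median of all tested protein-coding genes (0.566). Fibrillar matrix (3.95) and contractile genes (2.63) have the highest medians and endothelial genes (-2.53) the lowest.

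Endothelial genes were higher in *Pdgfra-tdT* mice with scaling. Of 14 genes, 8 were called higher in *Pdgfra-tdT* mice with scaling, against 9.68% of all tested genes, and 0 were called higher in *Acta2-tdT* mice, with a median of -2.53 over all 14. Without scaling 0 of 14 were called in either direction, and with scaling by the median ratio all 14 were called higher in *Pdgfra-tdT* mice, against 9.75% of all genes. The 14 genes took 1.51, 0.458, 0.180 and 0.0357% of nuclear protein-coding FPKM in *Pdgfra-tdT* mice 5 to 8 and 0.0206 to 0.0391% in the *Acta2-tdT* mice. Mice 5, 6 and 7 were above every *Acta2-tdT* mouse, and mouse 8 lay within their range. The count was 6 without *Pdgfra-tdT* mouse 5, 3 without mouse 6, 4 without mouse 7 and 10 without mouse 8. It was 5 without *Acta2-tdT* mouse 7 and 5 without *Acta2-tdT* mouse 8. The lines did not overlap on the scaled values for 5 of the 14, all higher in *Pdgfra-tdT*, against 9.13% of all tested genes in that direction.

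*Cldn5*, a tight junction claudin of endothelium, was at 741, 77.7, 19.5 and 2.43 FPKM in *Pdgfra-tdT* mice 5 to 8 and at 12.7, 13.2, 14.6 and 19.1 FPKM in *Acta2-tdT* mice 5 to 8. *Acta2-tdT* mice thus held a low, even level, while the *Pdgfra-tdT* mice ran from far above it to below it. The scaled difference was -3.92 ± 1.04 (SE; limma adjusted p = 0.0136), and the unscaled difference of -1.52 was not called (adjusted p = 0.294). *Gpihbp1*, which anchors lipoprotein lipase on capillary endothelium, was at 289, 61.8, 23.8 and 1.86 FPKM in *Pdgfra-tdT* mice 5 to 8 and at 2.53 to 6.82 FPKM in *Acta2-tdT* mice (-4.63 ± 0.93 SE, adjusted p = 0.00360). *Pecam1*, the endothelial adhesion molecule CD31, was at 65.9, 5.78, 2.64 and 0.443 FPKM against 2.32 to 5.11 FPKM (-2.49 ± 0.77 SE, adjusted p = 0.0272). The defining markers *Cdh5* and *Vwf* were at 18.4 and 10.9 FPKM in mouse 5 and at no more than 2.0 and 1.6 FPKM in mice 6 to 8, and neither was called, *Cdh5* being untested with scaling.

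*Gimap4*, a GTPase of lymphocytes, and *Cd36*, the fatty acid transporter of capillaries and macrophages, showed the same order of mice. They were at 62.2, 17.6, 7.01 and 2.61 FPKM and at 148, 23.2, 7.93 and 1.39 FPKM in *Pdgfra-tdT* mice 5 to 8. Their scaled differences were -3.69 ± 0.55 (SE; adjusted p = 0.00129) and -3.22 ± 0.81 (SE; adjusted p = 0.0107). *Ctla2a*, a cysteine protease inhibitor with a near copy in the genome that could share its reads, was at 183, 37.4, 17.9 and 16.3 FPKM in *Pdgfra-tdT* mice 5 to 8 and at 10.1, 9.55, 9.75 and 8.31 FPKM in *Acta2-tdT* mice 5 to 8. Of the 9 genes that the naming rule took as higher in *Pdgfra-tdT* mice in both fits, *Ctla2a* had the largest scaled difference, at -4.31 ± 0.52 with scaling (SE; limma adjusted p = 0.000511) and -1.91 without it (adjusted p = 0.0473). The unscaled call was lost when any 1 of the *Acta2-tdT* mice was left out (adjusted p = 0.0861 to 0.114). Of the 9 genes, 4, 8, 1 and 0 kept an unscaled call without *Acta2-tdT* mouse 5, 6, 7 and 8, and 5 and 7 without *Pdgfra-tdT* mouse 6 and 7.

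The other 8 of these genes were lowest in mouse 5 among the *Pdgfra-tdT* mice. *Usp29*, which encodes a ubiquitin protease, was at 12.7, 18.2, 24.5 and 25.7 FPKM in *Pdgfra-tdT* mice 5 to 8 and at 4.63, 9.54, 3.26 and 2.0 FPKM in *Acta2-tdT* mice 5 to 8 (-4.14 ± 0.74 SE, limma adjusted p = 0.00243). *Tmem72*, a transmembrane protein gene, was at 21.7, 24.0, 26.6 and 27.6 FPKM against 9.94, 15.2, 5.49 and 3.28 FPKM (-3.93 ± 0.70 SE, adjusted p = 0.00246). *Pou1f1*, a transcription factor of the pituitary, was at 4.43 to 7.94 FPKM against 1.43 to 3.44 FPKM (-3.08 ± 0.58 SE, adjusted p = 0.00284). The values of *Tmem72* were nearly even across *Pdgfra-tdT* mice whose summed FPKM differed widely. The receptor kinase gene *Grk4*, the centrosomal *Sfi1*, *Zfp65*, *Cd209c* and *Slco6c1* were called with scaling at -3.93, -3.92, -3.43, -3.35 and -3.22. In saline mice none of these 8 genes was called, with scaled differences of -0.77 to -0.11 (limma adjusted p = 0.555 to 0.935). Mean FPKM of *Tmem72* and *Grk4* was 23.1 and 24.1 in *Acta2-tdT* and 29.7 and 25.3 in *Pdgfra-tdT* saline mice. It was 8.47 and 7.58 in *Acta2-tdT* bleomycin mice. The limma interaction was called for none of the 8 (adjusted p = 0.0657 to 0.17), and the cause was not tested. In the bleomycin mice *Psg16*, *Slc38a6*, *Six2* and *Mid1* were called with scaling only, at -3.66, -3.46, -3.33 and -3.24. *Cd209c* and *Psg16* belong to families of similar genes whose reads Cufflinks could divide between copies.

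Most of the 844 genes called higher in *Pdgfra-tdT* mice were low. The median of their mean FPKM was 1.90 in *Pdgfra-tdT* mice and 1.12 in *Acta2-tdT* mice, where for the 1814 genes called higher in *Acta2-tdT* mice it was 19.3 in *Acta2-tdT* mice and 0.803 in *Pdgfra-tdT* mice. Of the 844, 175 were olfactory or vomeronasal receptor genes and 111 were predicted genes or RIKEN clones, whereas 0 of the 1814 were receptor genes. FPKM of at least 5 in at least 3 *Pdgfra-tdT* mice was reached by 90 of the 844, of which 21 were receptor genes and 30 predicted genes or clones. The highest *Pdgfra-tdT* mouse on the deposited scale was mouse 5 for 482 of the 844 genes and mouse 8 for 216, whereas of these 90 it was mouse 8 for 45, mouse 5 for 21, mouse 6 for 12 and mouse 7 for 12. The receptor genes took 0.699, 2.25, 2.67 and 4.82% of nuclear protein-coding FPKM in *Pdgfra-tdT* mice 5 to 8 and 0.0377 to 0.330% in *Acta2-tdT* mice. Where the median receptor FPKM of each mouse was subtracted from all genes before scaling, 484 of 7664 genes (6.32%) were called higher in *Pdgfra-tdT* mice, among them 481 of the 844, and 2367 (30.9%) higher in *Acta2-tdT* mice, among them 1721 of the 1814. Of the endothelial genes 6 were still called. The part of low signal in these calls was not tested further.

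**Figure D4:**
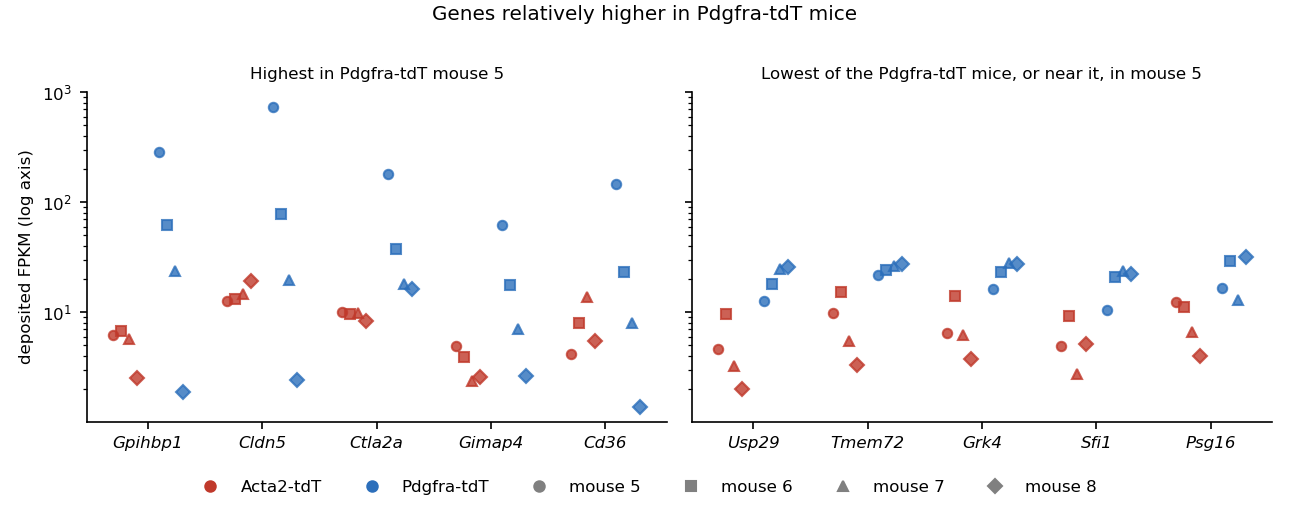
Deposited FPKM on a log axis for 10 genes called higher in *Pdgfra-tdT* mice with scaling, with color for the line and a symbol per mouse. In the left panel *Pdgfra-tdT* mouse 5 is highest and mouse 8 lowest, as for *Cldn5* from 741 to 2.43 FPKM. In the right panel the *Pdgfra-tdT* mice lie close together, as for *Tmem72* from 21.7 to 27.6 FPKM.

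Saline mice were used to ask which differences were also there without injury. With scaling, 253 of 3947 tested genes (6.41%) were called higher in *Acta2-tdT* saline mice and 4 (0.101%) higher in *Pdgfra-tdT* saline mice. Of the genes higher in *Acta2-tdT* mice, 142 were called in both treatments, which was 7.83% of the bleomycin calls and 56.1% of the saline calls, and no gene higher in *Pdgfra-tdT* mice was called in both. The saline and bleomycin fits use different mice and their own scaling. The summed nuclear FPKM was 36688 to 60947 in *Acta2-tdT* and 29964 to 61168 in *Pdgfra-tdT* saline mice, and the number of protein-coding genes with FPKM of at least 1 was 3635 to 5892 and 2035 to 6480. The overlap of the lines rested on *Pdgfra-tdT* saline mouse 3, at 61168 and 6480 genes, since the other 3 *Pdgfra-tdT* saline mice lay below every *Acta2-tdT* saline mouse in both measures. The differences in sum and in gene number missed the threshold (exact two-sided permutation p = 0.457 and 0.314), and without mouse 3, a comparison chosen after seeing the data, the p-values were 0.114 and 0.0286. The limma interaction of line and treatment over 16 scaled libraries was called for 188 of 9827 genes (1.91%), of which 135 (1.37%) were in the direction of a larger *Acta2-tdT* excess with bleomycin and 53 (0.539%) in the other. This count depended on the scaling and on single mice: it was 5865 in all without scaling and 1139 without *Pdgfra-tdT* bleomycin mouse 5. Without that mouse 381 genes were called with a larger excess and 758 with a smaller one, so that the majority direction turned.

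Most contractile genes were also called in saline mice. Of 20 contractile genes tested in saline mice, 14 were called higher in *Acta2-tdT* mice, against 6.41% of all genes, and of 13 fibrillar matrix genes tested 2 were called, *Bgn* (1.90, limma adjusted p = 0.0337) and *Eln* (1.20, adjusted p = 0.0194). In saline mice *Acta2* was at 139 to 314 FPKM against 2.59 to 11.0 FPKM (4.61, limma adjusted p = 0.00312). The interaction was called for *Des* (2.76, adjusted p = 0.0247), and in the other direction for *Myh11* (-1.87, adjusted p = 0.0198) and *Lmod1* (-1.52, adjusted p = 0.0489), of 22 tested. These 3 calls changed with single mice left out, from 0 to 4 calls in the first direction and 0 to 2 in the other. Without scaling 16 of 23 were called with a larger excess with bleomycin, where 55.5% of all genes were, and 0 in the other direction. There *Myh11* and *Lmod1* turned to 0.63 and 0.47. For *Acta2* itself the interaction was 2.02 ± 0.83 (SE; adjusted p = 0.198).

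*Col1a1* was at 1.76 to 2.44 FPKM in *Acta2-tdT* saline mice and at 0.353 to 3.65 FPKM in *Pdgfra-tdT* saline mice, which overlapped (0.05, limma adjusted p = 0.964). Its interaction was 5.40 ± 0.78 (SE; adjusted p = 0.00202). *Timp1* was likewise at 3.27 to 5.10 and 1.12 to 5.47 FPKM in saline mice, with an interaction of 5.50 ± 0.83 (SE; adjusted p = 0.00286). The line difference of both genes was thus seen with bleomycin and not detected with saline, and the difference between treatments was itself past the threshold. Both genes were named for a large difference in the same bleomycin mice, which favours a large interaction. Of 27 fibrillar matrix genes tested 19 were called with a larger *Acta2-tdT* excess with bleomycin and 0 in the other direction, against 1.37% and 0.539% of all genes. Of 20 matrix processing genes 7 were called with a larger excess, and of 20 growth factor signalling genes 7. Over the fits that left out 1 mouse these counts ran from 12 to 22 for fibrillar matrix, from 3 to 14 for matrix processing and from 3 to 10 for growth factor signalling, the highest without *Pdgfra-tdT* bleomycin mouse 5.

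Some pericyte genes had the opposite order with scaling. Of 10 tested in saline mice 7 were called higher in *Acta2-tdT* mice, and of 13 tested for interaction 6 were called with a smaller excess with bleomycin and 0 with a larger, against 6.41% of all genes in saline mice and 0.539% for the interaction. The count was 2 without any 1 of the *Acta2-tdT* saline mice, where 9 members were tested. *Cox4i2* and *Vtn*, as well as *Lmod1* above, were named after their values were seen. *Cox4i2*, a lung form of a cytochrome c oxidase subunit, was at 7.46 to 17.0 FPKM in *Acta2-tdT* saline mice and at 3.56 to 6.04 FPKM in *Acta2-tdT* bleomycin mice, and under 0.6 FPKM in every *Pdgfra-tdT* mouse (interaction -3.33 ± 0.39 SE, limma adjusted p = 0.000358). *Higd1b*, a mitochondrial protein gene, and *Vtn*, which encodes vitronectin, had interactions of -3.47 and -2.30. Without scaling, *Cox4i2* and *Vtn* were the members still called with a smaller excess (adjusted p = 0.0229 and 0.0436) and 3 other members were called with a larger one, where 1.08% and 55.5% of all genes were called in these directions. Of the neutrophil genes, *S100a8* was at 461 to 892 FPKM in *Acta2-tdT* and 10.9 to 27.2 FPKM in *Pdgfra-tdT* saline mice, and its interaction of -1.36 was not called (adjusted p = 0.470). *Cldn5* reached 246 FPKM in *Pdgfra-tdT* saline mouse 3 and 2.65 to 7.58 FPKM in the other 3 mice of that group.

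**Figure D5:**
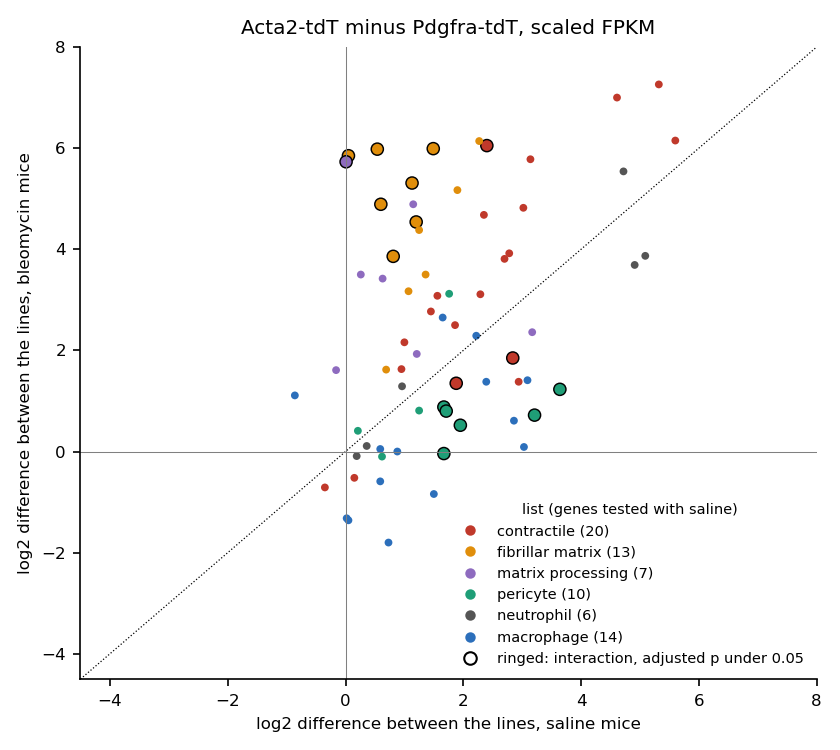
Each point is a gene of 6 lists, placed by its scaled log2 difference between the lines in saline mice (horizontal) and in bleomycin mice (vertical), each from its own fit. Black rings mark a called interaction and the dotted line marks equal differences. Fibrillar matrix genes such as *Col1a1* (0.05 and 5.85) lie above the line and pericyte genes such as *Cox4i2* (3.21 and 0.72) below it.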

How the data were processed

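RNA of sorted tdTomato-positive lung cells was sequenced from 16 mice, and the 8 bleomycin mice were compared by line. The values the authors deposited were FPKM per gene, computed for each mouse with TopHat2 2.1.1, Bowtie2 and Cufflinks 2.1.1 on mm10 (GRCm38), according to the submitters' processing notes and the paper's methods. Whether the mice were normalized to each other is not given in the sources used here, replicates were not pooled, and the depth is unknown. Each table held 49534 rows and 49452 genes (21974 protein-coding), rows were summed per gene, and 14 genes that Cufflinks did not mark as computed in all 8 mice were left out, except from the library measures. No pair of files was identical.

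Genes were tested with limma 3.58.1 (lmFit, eBayes with trend) in R 4.3.3 on log2(FPKM + 1), with line as the only term and Benjamini-Hochberg adjustment over all tested genes of any biotype. A gene was tested if its FPKM reached 1 in 4 or more of the 8 mice. Counts are of protein-coding genes. For the scaled values each mouse was multiplied so that its nuclear protein-coding FPKM summed to the geometric mean of the 8 sums (142383). For the interaction term of line and treatment all 16 mice were scaled together and fitted in 1 model. Library measures were compared by exact two-sided permutation tests. Tables were read with Python 3.11.15, pandas 2.3.3 and NumPy 2.4.6, and plots were drawn with matplotlib 3.10.9. The unscaled, scaled and interaction fits were checked on simulated data, where the direction and the size of increases were recovered, decreases of low genes came out smaller, and small changes, and most changes in the interaction, were not called.

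Named genes had a common symbol, an adjusted p under 0.05 and no overlap of the lines in both fits. The 12 with the largest scaled difference were taken for *Acta2-tdT* mice, and 9 for *Pdgfra-tdT* mice, with an FPKM of 5 or more in 3 or 4 of those mice. A further 8 called with scaling only, *Acta2*, *Pdgfra*, and up to 4 members and the defining markers of each gene list were added. The gene lists, the members and the comparisons were chosen with earlier results of these data known. Alternatives were other pseudocounts, filters, scalings, variance models and fits without single mice.

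Promoters were taken from RefSeq (GRCm38.p6) by symbol, and 19 of the 24 contractile genes matched.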

Additional observations from a re-analysis of the deposited data

Results flagged for a closer look

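In groups of 4 mice, 11 of 116 checked sets of values held a mouse far from the other 3. In 10 of these 11 it was *Pdgfra-tdT* mouse 5. Chance alone gives about 1 in 20 for a single set, but sets from the same mice are not independent, so no excess over chance can be read. On the log2(FPKM + 1) scale mouse 5 was above the other *Pdgfra-tdT* mice for *Acta2* (4.35), *Col1a2* (4.33), *Col1a1* (3.84), *Postn* (3.19), *Tpm2* (3.06), *Actg2* (2.93), *Thbs1* (2.34) and *Des* (1.73), and below them for *Sfi1* (3.52). Its median receptor gene FPKM of 0.0920 was also apart from the other 3. The contractile genes took 2.41% of nuclear protein-coding FPKM in *Acta2-tdT* mouse 8, above the other *Acta2-tdT* mice. Without *Pdgfra-tdT* mouse 5 all 12 genes named as higher in *Acta2-tdT* mice were still called in both fits. Mouse 5 was the highest *Pdgfra-tdT* mouse for all 12, so that leaving it out widened their differences and could not test these calls.

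For 17 of the named genes and list members named by rule, the line difference (*Acta2-tdT* minus *Pdgfra-tdT*) with bleomycin was larger than with saline by the limma interaction on scaled values, and for 4 it was smaller. Over all tested genes 1.37% and 0.539% were called in these directions. Most of the named genes were taken for a large line difference in the same bleomycin mice, which favours a larger gap there. The counts of 17 and 4 are thus no test of direction. The excess over saline was 5.50 for *Timp1* (adjusted p = 0.00286), 5.40 for *Col1a1* (adjusted p = 0.00202), 4.87 for *Col1a2* (adjusted p = 0.0117) and 4.46 for *Serpine2* (adjusted p = 0.00252). It was 3.87 for *Thbs1* (adjusted p = 0.00660), 3.77 for *Postn* (adjusted p = 0.0156) and 2.76 for *Des* (adjusted p = 0.0247), all on the log2 scale. Among list members it was 3.32 for *Fkbp10*, 2.40 for *Ctgf*, 2.25 for *Cdc20*, 2.22 for *Krt18*, 2.17 for *Cxcl14*, 1.80 for *Ltbp2*, 1.73 for *Aurka*, 1.63 for *Loxl1*, 1.61 for *Mcm6* and 1.30 for *Fosl1* (adjusted p = 0.000851 to 0.0495). It was -3.47 for *Higd1b*, -2.93 for *Cd2*, -1.87 for *Myh11* and -1.71 for *Ndufa4l2* (adjusted p = 0.00303 to 0.0198). The cell cycle, epithelial, alveolar fibroblast and immediate-early lists each had 0 calls of a larger difference in some fit without 1 mouse. The calls of *Cdc20*, *Aurka*, *Mcm6*, *Krt18*, *Cxcl14* and *Fosl1* were thus each lost in some such fit. The summed FPKM of the lines was apart with bleomycin (exact p = 0.0286) and overlapped through 1 mouse with saline (exact p = 0.457), and its part in these values was not tested.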

How the results depend on the processing

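Depth is unknown, and genes near 1 FPKM depend on the filter and pseudocount. Of the scaled differences of named genes over the alternatives, none with a call in either fit turned sign, 142 lost and 29 gained a call, and 1912 stayed on their side of the threshold. Uncalled members could turn sign, as *Clec3b* (-0.36 to 0.17) and *Cenpf* (-0.34 to 0.20) did after receptor background subtraction. The causes were not tested.

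Counts higher in *Acta2-tdT* and *Pdgfra-tdT* mice without scaling (main 8034 and 236) were 4129 and 36 at a mean FPKM of at least 5, 3460 and 92 where 2 or more mice of each line had to reach 1 FPKM, and 1929 and 676 after quantile normalization (74.0% of calls higher in *Acta2-tdT* mice, main 97.1%). They ran from 5507 to 8251 and from 45 to 242 without single mice, lowest for *Pdgfra-tdT* without *Acta2-tdT* mouse 8, and the second was 112 without *Pdgfra-tdT* mice 7 and 8, an alternative chosen after seeing the data. With scaling (main 1814 and 844) they were 748 and 518 with no filter, 632 and 202 at a mean scaled FPKM of at least 5, and 901 and 173 with the same rule for 2 mice of each line (83.9% higher in *Acta2-tdT*, main 68.2%). Scaling by the median ratio gave 1101 and 813, a sum of 1000000 gave 1710 and 2665, receptor background subtraction gave 2367 and 484 (83.0%), and sample quality weights gave 2978 and 1134. Without single mice they ran from 757 (without *Acta2-tdT* mouse 8) to 3011 (without *Pdgfra-tdT* mouse 5) and from 374 to 667, and without *Pdgfra-tdT* mice 7 and 8 the second was 345. Interaction calls (main 188) were 5865 without scaling, 634 at a pseudocount of 0.1 (21.3% with the larger *Acta2-tdT* excess, main 71.8%), 100 with no filter and 60 to 1139 without single mice, the highest without *Pdgfra-tdT* bleomycin mouse 5 (33.5% with the larger excess).

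The same replicate numbers in both lines did not pair the mice (correlations of deviations -0.298 to 0.0227). With the replicate number as a block the counts were 7988 and 189 without scaling, 1267 and 741 with it, and 33 for the interaction.

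Without single mice the summed FPKM difference ran from 266800 to 341500 and the difference in gene number from 4865 to 6761, with exact p-values of 0.0286 or 0.0571. The receptor median difference ran from -0.253 to -0.178 FPKM, with the exact p falling to 0.0286 without *Pdgfra-tdT* mouse 5. The mitochondrial share difference ran from -0.310 (without *Acta2-tdT* mouse 5) to 2.19 percentage points. Without scaling but after quantile normalization *Pdgfra* (-0.42), *Cd3d* (-1.36), *H2-DMb2* (-0.84) and *Epcam* (-0.64) turned sign. Without scaling the interactions of *Ager* (2.06), *Tpi1* (2.54), *mt-Atp6* (1.97), *Myh11* (0.63), *Lmod1* (0.47), *Tagln* (2.33) and *Csf3r* (1.53) turned sign.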
